A study of Mus musculus with 3 samples.

Results

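The retinoid handling genes described here are 6 genes chosen by symbol from the 32287 features of the count matrices: *Rlbp1*, *Rgr*, *Rdh10*, *Dhrs3*, *Aldh1a1* and *Aldh1a3*. All 6 were found. They were measured by single-cell RNA sequencing of sorted tdTomato+ retinal cells of Glast-CreERT2; R26-CAG-LSL-Tdt mice, in which tamoxifen (75 mg/kg daily, 5 injections from P20) switches on tdTomato in cells that use the *Glast* promoter, mostly Müller glia (MG), the main glial cells of the retina. In the control library the mice received AAV7m8-GFAP-GFP-LacZsh in the eye at P28. In the CCA library (cell cycle activator) they received AAV7m8-GFAP-cyclin D1-p27sh, which raises cyclin D1 and lowers the cell cycle inhibitor p27 from a glial promoter, mixed with a smaller amount of the control virus. The tamoxifen settings and virus names given here are those of the sample labels. The paper's methods state another dose and start day for labelling most MG, and name the control shRNA as non-target. The CCANT library had the CCA treatment followed by NMDA, which injures retinal neurons, at P35 and by trichostatin A (TSA), a histone deacetylase inhibitor, at P37. Retinas were taken at P51, and per the paper the parts with strong GFP were dissected out for sorting. The position of these parts is not stated for each library. Between 2 and 4 retinas were pooled per library, and each group is 1 library. The groups therefore have no replicates, no test between them was possible, and the intervals given are exact 95% intervals that cover counting error only.

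Vision uses 11-cis-retinal as the light-sensitive part of the visual pigments, and light turns it into the all-trans form, which has to be turned back outside the photoreceptor or replaced. MG and the pigment epithelium bind and convert these retinoids, and MG supply cones in particular. *Rlbp1* encodes CRALBP, the carrier of 11-cis-retinoids in MG and pigment epithelium. *Rgr* encodes an opsin that binds all-trans-retinal and turns it into the 11-cis form in light. *Rdh10* oxidises retinol to retinal and *Dhrs3* reduces retinal to retinol, so both sit at the step before retinoic acid. *Aldh1a1* and *Aldh1a3* oxidise retinal to retinoic acid, and in the developing eye *Aldh1a1* marks the dorsal and *Aldh1a3* the ventral retina.

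The genes lie on GRCm38 at chr7:79374870-79387048 (*Rlbp1*, minus strand, 9 exons in the principal transcript), chr14:37034909-37048964 (*Rgr*, minus, 7 exons), chr1:16105774-16133734 (*Rdh10*, plus, 6 exons), chr4:144892827-144928209 (*Dhrs3*, plus, 6 exons), chr19:20492715-20643465 (*Aldh1a1*, plus, 16 exons) and chr7:66390890-66427517 (*Aldh1a3*, minus, 13 exons). UMIs from exons and introns were both counted. *Aldh1a1* alone overlapped other annotated genes, both on the opposite strand, and it has a close paralog, *Aldh1a7*, which held 6.399%, 5.92% and 4.50% as many UMIs as *Aldh1a1* in the control, CCA and CCANT libraries, so a small part of either count could belong to the other.

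RefSeq promoter windows (GRCm38.p6, 250 bases before to 50 bases after the start) were found for 4 of the 6 genes, and 3 are printed for the genes whose cell type patterns differ most below: *Rlbp1*, most abundant in MG, *Rgr*, lower in both treated libraries, and *Dhrs3*, most abundant in rod-like and microglia-like cells. The windows lie at chr7:79386978-79387277 (*Rlbp1*, minus strand), chr14:37048965-37049264 (*Rgr*, minus) and chr4:144892827-144893126 (*Dhrs3*, plus). *Dhrs3* has 3 such windows, of which 1 is printed, and *Rlbp1* and *Rgr* have 1 each. The printed *Dhrs3* window begins at the first base of the gene span given above and lies inside it. Capitals mark matches on either strand to TATAAA, to CCAAT and to TAATCC, the core bound by the photoreceptor factors CRX and OTX2.
Rlbp1: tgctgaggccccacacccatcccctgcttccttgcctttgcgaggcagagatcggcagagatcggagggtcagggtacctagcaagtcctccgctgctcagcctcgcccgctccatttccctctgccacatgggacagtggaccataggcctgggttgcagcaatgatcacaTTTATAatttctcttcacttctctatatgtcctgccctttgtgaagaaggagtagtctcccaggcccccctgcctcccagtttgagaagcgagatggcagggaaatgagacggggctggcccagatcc
Rgr: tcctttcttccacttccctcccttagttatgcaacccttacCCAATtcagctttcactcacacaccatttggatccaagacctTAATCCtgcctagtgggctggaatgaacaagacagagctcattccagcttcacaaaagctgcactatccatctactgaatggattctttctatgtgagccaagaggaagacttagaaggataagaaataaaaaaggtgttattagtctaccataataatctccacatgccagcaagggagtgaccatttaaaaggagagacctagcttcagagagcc
Dhrs3: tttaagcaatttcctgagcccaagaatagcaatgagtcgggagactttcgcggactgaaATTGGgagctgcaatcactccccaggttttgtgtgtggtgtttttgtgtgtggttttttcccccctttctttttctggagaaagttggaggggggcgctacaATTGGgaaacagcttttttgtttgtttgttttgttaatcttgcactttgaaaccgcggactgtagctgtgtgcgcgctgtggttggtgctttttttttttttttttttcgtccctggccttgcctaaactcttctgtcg
TAATCC stood in 7.06% of all 32851 windows and, among the members, only in *Rgr*, 167 bases before the start. TATAAA stood in 13.6% of windows and here in *Rlbp1*, on the opposite strand 78 bases before the start. CCAAT stood in 37.4% of windows, and in those printed at 209 bases before the start in *Rgr* and at 191 and 89 bases before it, on the opposite strand, in *Dhrs3*. AGGTCA, a core motif of retinoid receptors, stood in 16.3% of windows and in no window of a member. None of these matches was tested as a binding site.

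The kept cells are those of the joint table, 3758 control, 3890 CCA and 3278 CCANT cells with a median of 24236, 20711 and 20722 UMIs. Of these, 3744, 3643 and 3107 passed only a cut on 10 MG markers that hold no member, and 9, 33 and 18 passed for rods alone. Cuts for several cell types were passed by 0, 69 and 129 cells, and no cut by 5, 145 and 24. Rod transcripts were also carried by MG: the 10 rod markers summed to 335, 963 and 1790 CPM (UMIs per 1000000 UMIs of all genes) in the control, CCA and CCANT libraries, and all 10 were detected and higher in both treated libraries. Between 2 and 8 kept barcodes recurred in each pair of libraries. In control 3505 cells passed for Y-linked transcripts, 1 more for both these and *Xist*, and none for *Xist* alone. In CCA 3859 cells passed for *Xist* and none for Y-linked transcripts. CCANT held 1183 cells with Y-linked transcripts, 1718 with *Xist* and 90 with both. Sex therefore cannot be told apart from treatment between control and CCA.

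*Rlbp1* was the most abundant member, followed in control cells by *Rdh10* and *Aldh1a1*, then by *Dhrs3* and *Rgr*, with *Aldh1a3* at the lowest level. These are UMI counts from 3′ libraries and were compared between genes without a length correction. UMIs from introns were counted as well, and the genes span from 12179 bases (*Rlbp1*) to 150751 bases (*Aldh1a1*). Any effect of gene span on this order was not tested. In the control, CCA and CCANT libraries *Rlbp1* stood at 2021, 1775 and 1481 CPM, highest in control and lowest in CCANT. *Rgr* stood at 11.6, 4.60 and 3.66 CPM, so that control lay above both treated libraries.

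*Rdh10* measured 310.1, 216.5 and 348.4 CPM, lowest in CCA. *Dhrs3* measured 22.7, 26.4 and 36.3 CPM, which is the reverse order of *Rlbp1*. *Aldh1a1* measured 216.6, 262.2 and 270.4 CPM, with CCANT next to CCA and control below both. *Aldh1a3* measured 1.02, 1.22 and 2.13 CPM, from 97, 102 and 151 UMIs, and the intervals of control (0.824 to 1.24) and CCA (0.999 to 1.49) overlapped while that of CCANT (1.81 to 2.50) did not reach them.

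**Figure D1:**
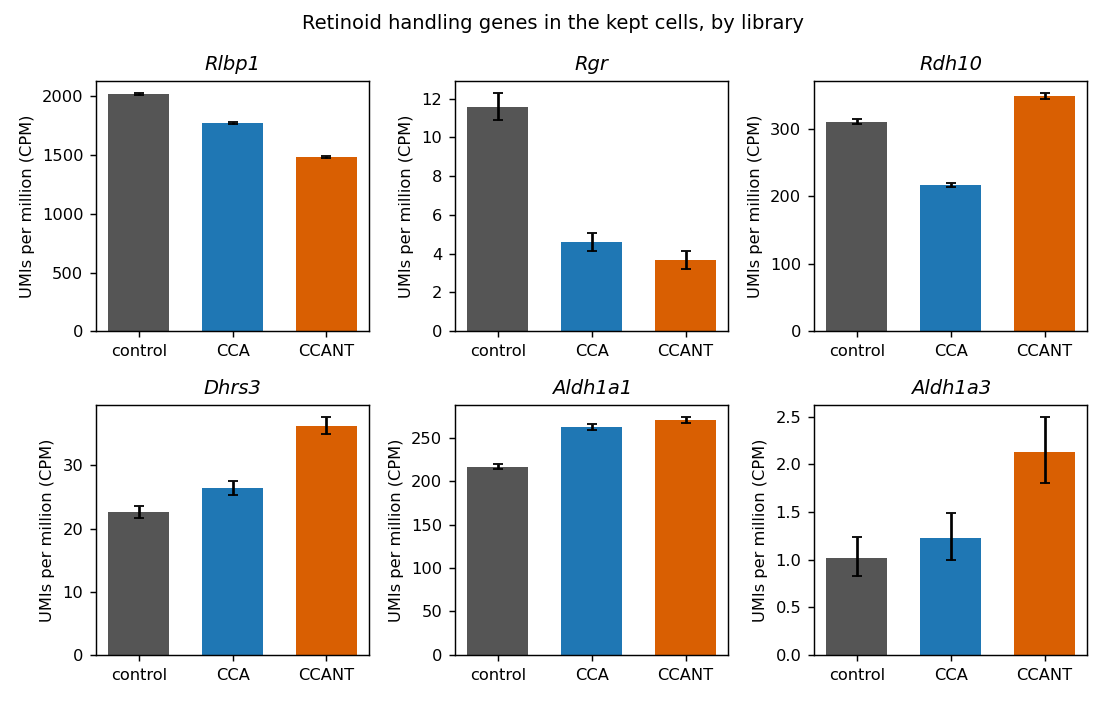
CPM (UMIs per 1000000 UMIs, vertical axis from 0) of each member in the kept cells of the control, CCA and CCANT libraries, 1 bar per library, with exact 95% Poisson intervals for counting error. *Rlbp1* and *Rgr* are highest in control, *Rdh10* is lowest in CCA at 216.5 CPM, and *Dhrs3* and *Aldh1a3* are highest in CCANT.

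The share of cells with a UMI was compared after each cell had been thinned to 8000 UMIs, which left out 36, 103 and 53 shallower kept cells. *Rlbp1* was seen in 100% of control, 99.4% of CCA and 99.4% of CCANT cells (CPM in all kept cells as above), *Rdh10* in 83.8%, 71.8% and 83.1%, *Aldh1a1* in 48.5%, 59.4% and 57.7%, and *Dhrs3* in 15.6%, 17.4% and 21.6%. *Rgr* was seen in 8.19% of control cells and in 3.25% and 2.23% of CCA and CCANT cells. The shares of *Rgr* and *Dhrs3* moved as their CPM did. No order is read from the share of *Rlbp1*, which is near its ceiling, or from those of *Rdh10* and *Aldh1a1* in CCANT, which did not follow the CPM there.

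Amacrine-like cells (535, 899 and 599 cells at this depth, median 22194, 20497 and 20671 UMIs) were taken as a neuronal class for comparison. Whether they make any member themselves was not tested. In these cells the shares were 38.5%, 37.2% and 36.4% for *Rlbp1*, 14.2%, 15.2% and 14.2% for *Rdh10*, and 8.60%, 9.79% and 6.84% for *Aldh1a1*. For *Dhrs3* they were 4.67%, 5.34% and 8.35%, rising in the same order as in kept cells. All of these lay below the share in kept cells. *Rgr* had none of 535, 0.222% and none of 599 there. *Aldh1a3* was seen in 0.860%, 0.739% and 1.58% of kept cells against 0%, 0.667% and 0.501% of amacrine-like cells, so its share in CCA did not stand out from that class. Its UMIs were also concentrated, the 10 leading cells holding 42.3%, 47.1% and 23.8% of them.

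Whether the members differed between the libraries was read as a ratio of CPM, with 1.5-fold as the size of a call. From control to CCA, 1 of the 6 members, *Rgr*, was past 1.5-fold, and it was lower (log2 ratio -1.33, 95% interval -1.50 to -1.16). Among 17630 features with at least 50 UMIs, 3.29% were past 1.5-fold lower and 11.8% higher. *Rdh10* was lower by a log2 ratio of -0.52 (-0.55 to -0.49), which is 1.43-fold and inside the call. *Rlbp1* was lower by -0.19 (-0.20 to -0.18), while *Dhrs3* (0.22, 0.13 to 0.31) and *Aldh1a1* (0.28, 0.25 to 0.30) were higher and inside it. The median log2 ratio was 0.02 over the members and 0.07 over all features tested.

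From control to CCANT, 3 of 6 members were past 1.5-fold. *Rgr* was lower (-1.66, -1.86 to -1.47), and *Dhrs3* (0.68, 0.60 to 0.76) and *Aldh1a3* (1.07, 0.69 to 1.45) were higher. Among all MG by markers, with no tdTomato requirement, *Dhrs3* stood at 25.1 CPM in control and 35.9 in CCANT. That log2 ratio of 0.52 is inside the call. Of 17380 features, 11.0% were past 1.5-fold higher and 5.93% lower. *Rlbp1* was lower by -0.45 (-0.46 to -0.44), *Aldh1a1* higher by 0.32 (0.29 to 0.35) and *Rdh10* higher by 0.17 (0.14 to 0.19), all inside the call. The median was 0.24 over the members and 0.03 over all features.

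From CCA to CCANT, the libraries that share the virus and differ in NMDA and TSA, *Rdh10* was higher by a log2 ratio of 0.69 (0.66 to 0.71) and past 1.5-fold, where 3.1% of 17397 features were higher and 6.03% lower. Among all MG by markers, with no tdTomato requirement, *Rdh10* stood at 219.0 CPM in CCA and 326.3 in CCANT. There its log2 ratio of 0.575 fell just inside the call. *Aldh1a3* was past it as well (0.80, 0.43 to 1.18), against a CCA level whose share of cells did not stand out from amacrine-like cells. *Dhrs3* was higher by 0.46 (0.38 to 0.54), *Rlbp1* lower by -0.26 (-0.27 to -0.25) and *Rgr* lower by -0.33 (-0.56 to -0.10). *Aldh1a1* differed by 0.04 (0.02 to 0.07). *Rdh10* was thus lower in CCA and higher in CCANT than in control, whereas *Rlbp1* stepped down from control to CCA and again to CCANT. The 3 comparisons share libraries and are not independent of each other.

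The *Rgr* count of the control library rested in part on 1 cell, which held 165 of its 1106 UMIs together with 35 UMIs of *Rpe65*, 60 of *Rdh5* and 835 of *Ttr*, genes of the pigment epithelium. Without cells of at least 3 *Rpe65* UMIs, 1 in control, none in CCA and 2 in CCANT, *Rgr* stood at 9.86 (9.24 to 10.5), 4.60 (4.15 to 5.08) and 3.49 (3.07 to 3.95) CPM, with control still above both treated libraries. Among all MG by markers, with no tdTomato requirement, *Rgr* was at 10.7, 7.22 and 3.96 CPM, which left CCA inside 1.5-fold of control (log2 ratio -0.57), and 1 CCA cell held 331 of 894 UMIs there. Without the cells with *Rpe65* the values were 9.63, 4.55 and 3.68 CPM. The pigment epithelium list as a whole summed to 211, 168 and 174 CPM in kept cells, all 10 genes were detected, and 5 of 10 were below 1 CPM in each library. Of these sums *Rrh* alone gave 183.8, 148.8 and 149.4 CPM, so they mostly reflect 1 gene.

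*Dhrs3*, which rod-like cells hold at a higher level than MG, was compared also without the 26, 201 and 340 kept cells that carried rod markers. It then stood at 22.6, 25.0 and 34.3 CPM, in the same order. Lower amounts of rod RNA remained in the cells that were left, and their part in these *Dhrs3* levels was not tested. In cells with Y-linked transcripts, *Dhrs3* stood at 22.6 CPM in control and 36.5 CPM in CCANT, and *Rgr* at 11.7 and 3.16 CPM. In cells with *Xist*, *Rdh10* stood at 216.8 CPM in CCA and 370.1 CPM in CCANT. Within CCANT itself *Rdh10* was at 325.3 CPM in cells with Y-linked transcripts and *Aldh1a1* at 286.6 CPM, against 370.1 and 250.1 CPM in cells with *Xist*.

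Cells with at least 1 UMI of *Mki67* or *Top2a*, genes of dividing cells, numbered 42 in control (1.12% of kept cells), 752 in CCA (19.3%) and 299 in CCANT (9.12%), with median UMIs of 26444, 22173 and 22837 against 24212, 20394 and 20558 in the other cells. Of these, 35, 431 and 187 had only 1 such UMI. *Mki67* and *Top2a* stood at 4.89 and 5.77 CPM in CCA rod-like cells, against 51.1 and 80.1 in kept cells. In CCANT cone-like cells they stood at 23.0 and 24.1 CPM, against 18.5 and 32.5 in kept cells, so a single UMI need not mean division. In CCA cycling cells *Rlbp1* stood at 1389 CPM against 1878 in other cells (log2 ratio -0.44, -0.45 to -0.42). In CCANT it stood at 1174 against 1516 CPM (-0.37, -0.40 to -0.34). The 10 MG markers moved with it, with median log2 ratios of -0.27 and -0.32, none past 1.5-fold. *Aldh1a1* went the other way, at 302.1 against 251.6 CPM in CCA (0.26, 0.22 to 0.31) and 367.0 against 259.1 CPM in CCANT (0.50, 0.44 to 0.56).

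*Rgr* and *Aldh1a3* had few UMIs in cycling cells. In CCA *Aldh1a3* stood at 0.741 against 1.35 CPM (log2 ratio -0.87, -1.84 to -0.02), and in CCANT *Rgr* stood at 1.35 against 3.93 CPM (-1.54, -2.61 to -0.63), but these rest on 13 and 10 UMIs in cycling cells and met the floor of 50 UMIs only through the other cells, where they are higher, so neither is counted. In CCANT *Aldh1a3* was past 1.5-fold higher in cycling cells (3.52 against 1.97 CPM, 0.84, 0.17 to 1.45, from 26 and 125 UMIs), where 8.42% of 15745 features were higher and 4.24% lower. In CCA, 8.91% of 16235 features were higher and 2.7% lower, and *Rlbp1*, *Rdh10*, *Dhrs3* and *Aldh1a1* lay within 1.5-fold in both libraries. Without the 1 cell with most *Aldh1a3* UMIs the log2 ratios of *Aldh1a3* were -0.61 (-1.58 to 0.26) in CCA and 0.47 (-0.29 to 1.16) in CCANT. *Rdh10* was at 193.8 against 222.6 CPM in CCA (-0.20, -0.25 to -0.15) and at 340.5 against 349.3 CPM in CCANT (-0.04, -0.10 to 0.02). *Dhrs3* was within 1.5-fold in both libraries, at 24.6 against 26.9 CPM in CCA and 40.7 against 35.8 CPM in CCANT. In the 42 control cells *Rlbp1* was at 1822 against 2024 CPM and *Aldh1a1* at 189.9 against 216.9 CPM.

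For *Rlbp1* the split sharpened with the number of *Mki67* and *Top2a* UMIs in a cell. In CCA, *Rlbp1* was at 1878 CPM in cells with none, 1717 with 1, 1539 with 2, 1350 with 3 to 5 and 711 CPM in the 178 cells with 6 or more, a step down at each bin. Over the same bins *Aldh1a1* was at 251.6, 307.7, 318.7, 300.6 and 285.8 CPM, above the first bin throughout and highest with 2 UMIs. The sum of the 10 MG markers was lower in the last bins too, at 27637, 27572, 28068, 23740 and 13644 CPM.

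In CCANT, *Rlbp1* was at 511.5 CPM and *Aldh1a1* at 456.5 CPM in the 61 cells with 6 or more such UMIs, so that the levels of the 2 genes, far apart in cells with none, lay close to each other. With at least 3 UMIs as the definition, *Rlbp1* was lower by a log2 ratio of -1.17 (-1.21 to -1.13) in 240 CCA cells and by -1.21 (-1.28 to -1.13) in 78 CCANT cells. The 10 MG markers had median log2 ratios of -0.76 and -0.75 in these cells, from -1.34 to -0.33 and from -1.33 to -0.37, and 9 and 8 of them were past 1.5-fold lower, where 16.8% and 16.5% of all features were lower and 18.7% and 19.1% higher. *Rdh10* was lower by -0.64 (-0.74 to -0.54) in CCA and differed by -0.05 (-0.16 to 0.05) in CCANT. *Aldh1a1* was higher by 0.20 (0.13 to 0.27) and 0.70 (0.60 to 0.79).

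**Figure D2:**
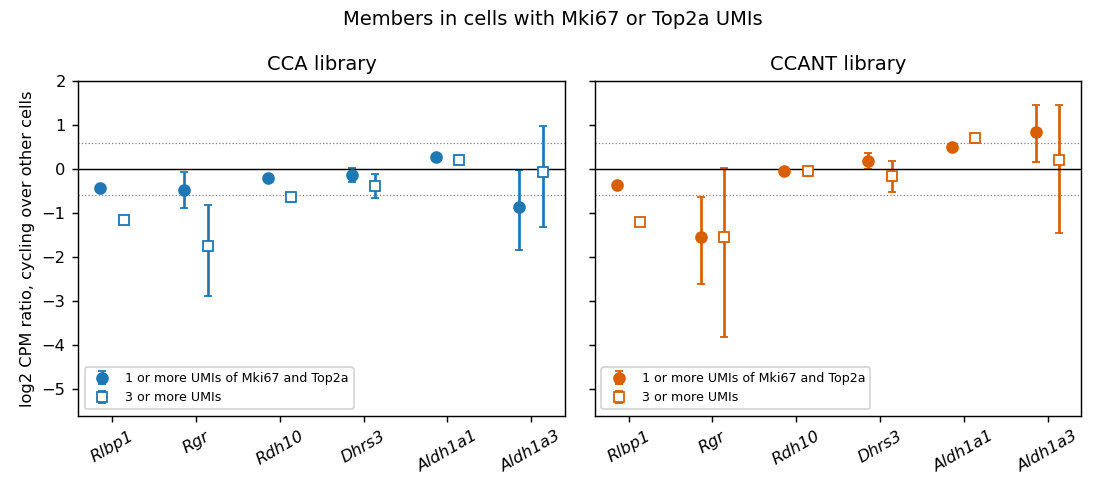
Log2 ratio of CPM in cycling over other kept cells (vertical axis) for each member in the CCA (left) and CCANT (right) library, with exact 95% intervals; filled circles take cells with 1 or more UMIs of Mki67 and Top2a, open squares cells with 3 or more, and dotted lines mark 1.5-fold. *Rlbp1* lies below 0 in all 4 comparisons and drops to -1.17 and -1.21 at 3 or more UMIs, while *Aldh1a1* lies above 0 in all 4.

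Rod-like and cone-like cells were taken from all cells that passed the quality filters, by a cut of 100 UMIs per 10000 on 10 markers each, and numbered 864, 1402 and 1403 (rod-like) and 150, 252 and 208 (cone-like). Their median depth was 5092, 5008 and 5152 UMIs for rod-like and 13406, 13491 and 13046 for cone-like cells. Few lay just beside the cut, 10, 32 and 59 for rods and 1, 6 and 6 for cones. Both carried some MG markers, a median of 14.9, 14.8 and 19.6 UMIs per 10000 in rod-like and 11.8, 11.7 and 15.3 in cone-like cells, against 264.1, 270.8 and 291.6 in kept cells. From these markers the glial RNA in rod-like cells was put at 5.46%, 6.12% and 7.88% of the level in MG, and in cone-like cells at 2.81%, 3.60% and 6.19%.

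*Dhrs3* stood apart from the other members in photoreceptors. It measured 127.4 CPM (117.5 to 137.9) in control, 94.03 (87.4 to 101.0) in CCA and 105.7 (99.03 to 112.8) in CCANT rod-like cells, where carried-over glial RNA would give 1.37, 1.68 and 2.83 CPM. The level was above that of the other kept cells by log2 ratios of 2.49 (2.36 to 2.62), 1.85 (1.72 to 1.97) and 1.55 (1.44 to 1.66). In rod-like cells, the control level was higher than either treated level, while in MG it was the lowest of the 3. At 8000 UMIs *Dhrs3* was seen in 50.8% of 59, 44.4% of 126 and 44.8% of 172 rod-like cells, against 4.67%, 5.34% and 8.35% of amacrine-like cells, the other rod-like cells being too shallow for this count.

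Cone-like cells held *Dhrs3* at 14.3, 11.8 and 10.5 CPM. Amacrine-like cells held it at 6.24, 9.44 and 11.1 CPM, lower than cone-like cells in control with intervals that did not overlap, and bipolar-like cells at 15.9, 18.1 and 15.6 CPM. Against the carried-over estimate, *Dhrs3* was at 20.2, 11.9 and 4.73 times in cone-like and 8.27, 7.56 and 6.72 times in amacrine-like cells. In bipolar-like cells it was at 20.2, 17.6 and 8.23 times that estimate. With the largest glial share that any of the 10 MG markers gave, *Dhrs3* was at 5.81, 4.91 and 2.77 times in cone-like cells. At that share it was at 1.74, 1.79 and 1.71 times in amacrine-like and 13.8, 10.2 and 6.03 times in bipolar-like cells. Microglia-like cells, a class of 71, 48 and 25 cells, held it at 97.5, 103.0 and 142.9 CPM, with intervals (82.6 to 114.3, 83.7 to 125.4 and 106.4 to 187.8) that overlapped those of rod-like cells in CCA and CCANT and lay below in control. The order of *Dhrs3* levels was therefore rod-like and microglia-like cells first, kept cells next, and cone-like cells and inner neurons after them. At a stricter marker cut the log2 ratios of *Dhrs3* in rod-like over other kept cells were 2.59, 1.91 and 1.68. Among kept cells alone, 9 control cells were rod-like and held 1 *Dhrs3* UMI (log2 ratio -0.0087), while the 33 CCA and 18 CCANT cells gave log2 ratios of 1.92 and 1.30.

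*Rlbp1*, *Rdh10* and *Aldh1a1* were lower in rod-like and cone-like cells than in kept cells. *Rlbp1* stood at 132.4, 135.4 and 124.7 CPM in rod-like and 78.7, 73.1 and 85.8 CPM in cone-like cells, where carried-over RNA would give 107.4, 105.6 and 110.9 CPM in rod-like and 55.2, 62.1 and 87.1 CPM in cone-like cells. *Rlbp1* had 40.1, 41.6 and 34.3 UMIs for each 100 of *Glul*, glutamine synthetase of MG, in rod-like cells and 30.4, 30.6 and 28.1 in MG. *Aldh1a1* was at 17.1, 23.2 and 29.4 CPM in rod-like and 11.3, 13.1 and 13.9 CPM in cone-like cells.

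*Rdh10* was at 38.2, 30.8 and 37.4 CPM in rod-like cells, 2.26, 2.30 and 1.45 times the carried-over estimate. Bipolar-like and amacrine-like cells held it at 25.2, 24.1 and 27.5 and at 21.8, 22.1 and 21.6 CPM. These levels were 2.61, 2.93 and 1.6 and 2.35, 2.22 and 1.44 times their own carried-over estimates, and by this measure rod-like cells lay below bipolar-like cells in each library. With the largest glial share that any of the 10 MG markers gave, the rod-like levels were 1.58, 1.80 and 1.15 times the estimate. At that share bipolar-like levels were 1.78, 1.70 and 1.17 times their estimate, so rod-like cells lay above them in CCA. Amacrine-like levels were then 0.494, 0.524 and 0.367 times their estimate, which is below it. *Rgr* had 9, 4 and 5 UMIs in all rod-like cells and 3, 1 and 0 in cone-like cells, the last with an upper 95% limit of 1.2504 CPM. *Aldh1a3* had 1, 9 and 11 UMIs in rod-like and 1, 6 and 5 in cone-like cells.

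In all 3 libraries *Dhrs3* was past 1.5-fold higher in rod-like over other kept cells, and *Rlbp1*, *Rdh10* and *Aldh1a1* were past it lower. Of 15818 features, 23.1% were higher and 30.5% lower in all libraries. In cone-like cells *Rlbp1* was past it lower, where 20.2% of 15595 features were higher and 29.1% lower. *Dhrs3* (29, 43 and 31 UMIs), *Aldh1a1* (23, 48 and 41) and, in control, *Rdh10* (34) had fewer than 50 UMIs in cone-like cells and met the floor only with the kept cells, as did *Rgr* and *Aldh1a3* in both classes, so these are not counted. The log2 ratio of *Dhrs3* in control cone-like cells was -0.67 (-1.25 to -0.14), and -0.42 as a mean over cells, which is inside 1.5-fold.

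**Figure D3:**
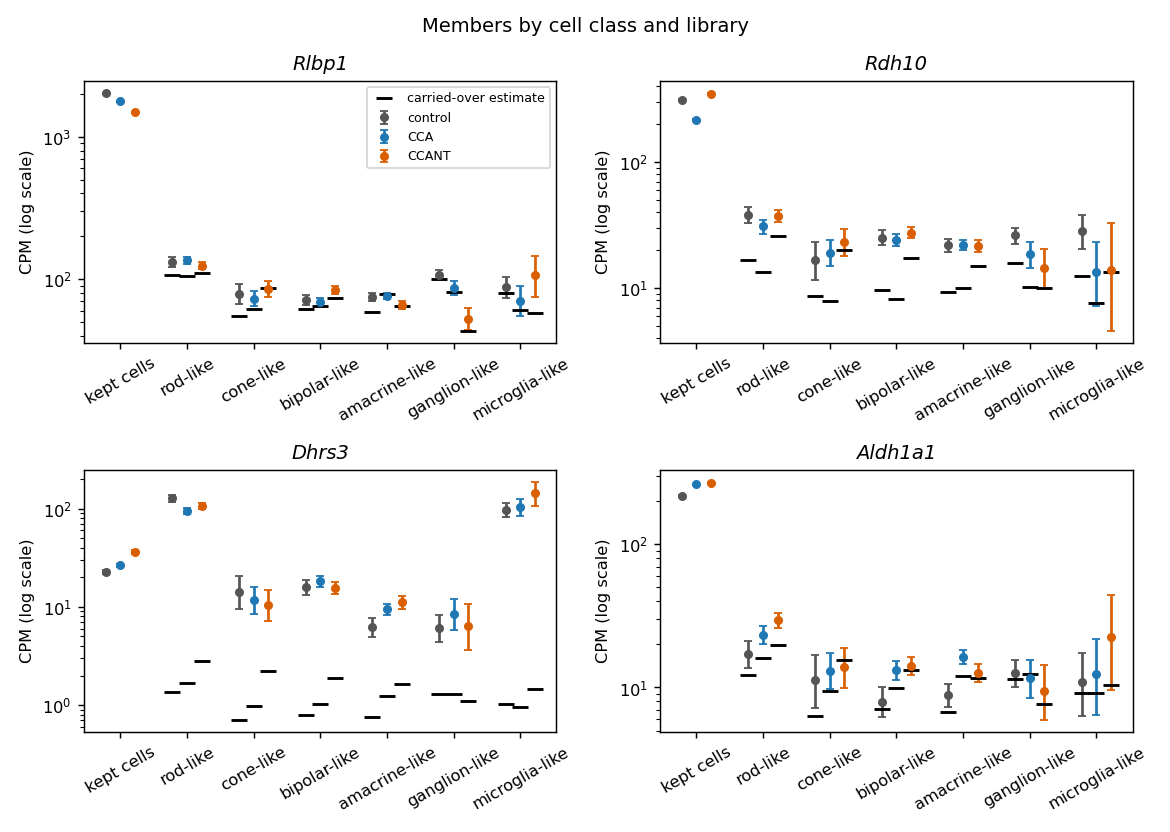
CPM (vertical axis, log scale) of Rlbp1, Rdh10, Dhrs3 and Aldh1a1 in kept cells and in 6 classes set by markers, 1 point per library with exact 95% Poisson intervals; black dashes give the level that carried-over glial RNA would produce. Outside the kept cells *Rlbp1* and *Aldh1a1* lie within 2.16 times the dashes, while *Dhrs3* in rod-like cells (94.03 to 127.4 CPM) and microglia-like cells lies farthest above them. In the other classes *Dhrs3* also lies above the dashes, at 4.73 to 20.2 times their level.

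Over 23 profiles (class by library), the features whose log2(CPM + 1) was most like a member were *Pdpn*, *Slmap* and *S100a16* for *Rlbp1* (Pearson r 0.99 each), *S1pr3*, *Car14* and *Sbspon* for *Rdh10* (0.99, 0.98 and 0.98), and *Espn*, *Cryab* and *Mlc1* for *Aldh1a1* (0.99 each). *Dhrs3* was most like *B4galt1* (0.97), *Tnip2* (0.94) and *Rapgef6* (0.93). *Rgr* was most like *Shisal2b* (0.90), *Gbp10* (0.88) and *Hepacam* (0.87), and *Aldh1a3* most like *Phpt1*, *Mrpl28* and *Ndufa7* (0.83, 0.80 and 0.78). Among 12428 features, 144, 135 and 121 had r above 0.95 with *Rlbp1*, *Rdh10* and *Aldh1a1*, and 1 with *Dhrs3*. The profiles of 1 library share its depth and free RNA, and the correlations are given as descriptions only.

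*Rlbp1* was seen in nearly all MG, at a higher level, and *Aldh1a1* in only part of them. At 8000 UMIs per cell *Aldh1a1* had no UMI in 51.5% of control, 40.6% of CCA and 42.3% of CCANT kept cells, and 10 or more in 1.67%, 1.74% and 2.42%. *Rlbp1* ranged over 10 to 24 UMIs between the 10th and 90th percentile in control, 5 to 24 in CCA and 5 to 20 in CCANT. The same range of *Aldh1a1* was 0 to 5, 0 to 6 and 0 to 6, and counting error at these unlike levels was not removed. To see whether the spread of *Aldh1a1* followed position in the retina, kept cells with *Tbx5* UMIs and none of *Vax2* were set beside cells with *Vax2* and none of *Tbx5*. Both encode transcription factors that mark the dorsal and the ventral retina, respectively.

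Cells with *Tbx5* and no *Vax2* made up 14.7% (553), 18.5% (720) and 18.3% (601) of kept cells, and cells with *Vax2* and no *Tbx5* 37.5% (1409), 29.9% (1162) and 32.1% (1053). *Aldh1a1* stood at 522.3, 514.8 and 541.2 CPM in the cells with *Tbx5*. It stood at 112.8, 130.6 and 152.7 CPM in the cells with *Vax2*, lower by log2 differences of 2.21 (2.16 to 2.27), 1.98 (1.92 to 2.04) and 1.83 (1.77 to 1.88). The *Tbx5* cells of the 3 libraries were thus within 0.07 log2 of each other in *Aldh1a1*, and within them the log2 ratio of CCA to control was -0.02 (-0.07 to 0.02) and that of CCANT to control 0.05 (0.01 to 0.10). Within the *Vax2* cells it was 0.21 (0.15 to 0.28) and 0.44 (0.37 to 0.50). Cells with neither gene made up 46.3%, 50.3% and 47.7% of kept cells. Their *Aldh1a1* ratios to control were 0.31 (0.27 to 0.35) in CCA and 0.29 (0.25 to 0.34) in CCANT.

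**Figure D4:**
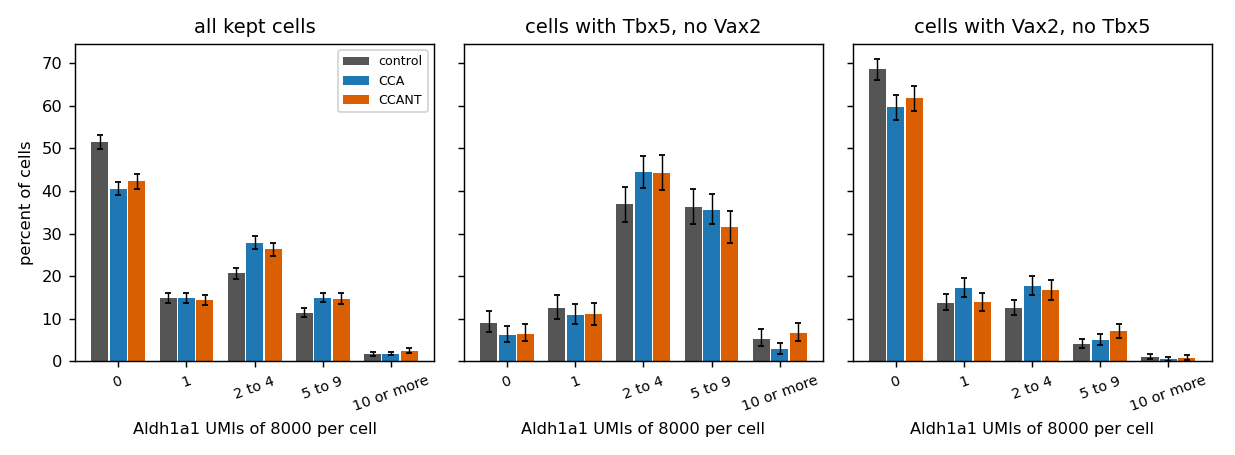
Percent of cells (vertical axis) by the number of Aldh1a1 UMIs among 8000 per cell, in all kept cells, in cells with Tbx5 and no Vax2, and in cells with Vax2 and no Tbx5, 1 bar per library with exact binomial 95% intervals. Cells without an *Aldh1a1* UMI make up 59.7% to 68.6% of the cells with *Vax2* and 6.27% to 9.07% of those with *Tbx5*.

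*Dhrs3* followed *Aldh1a1*, at 35.5, 38.0 and 60.2 CPM in *Tbx5* cells and 17.4, 22.2 and 28.1 CPM in *Vax2* cells. *Aldh1a3* went the other way, at 0.543, 1.03 and 0.802 against 1.33, 1.92 and 3.81 CPM. *Rgr* was at 7.46, 2.61 and 1.75 CPM in *Tbx5* and 15.2, 5.15 and 5.21 CPM in *Vax2* cells. The cells with at least 3 *Rpe65* UMIs, 1 in control and 2 in CCANT, were *Vax2* cells, and without them *Rgr* stood there at 10.8 CPM in control, inside 1.5-fold of the *Tbx5* cells (log2 ratio -0.53, -0.85 to -0.22), and at 4.71 CPM in CCANT. In all 3 libraries *Aldh1a1* and *Dhrs3* were past 1.5-fold higher in *Tbx5* cells, where 3.9%, 5.49% and 5.3% of all features were higher and 4.21%, 3.19% and 3.49% lower. *Aldh1a3* in each library, and *Rgr* in CCA and CCANT, had fewer than 50 UMIs in *Tbx5* cells and met the floor only with the *Vax2* cells, so they are not counted. *Rlbp1* was within 1.5-fold, at 1903, 1525 and 1270 against 2040, 1928 and 1574 CPM, and *Rdh10* nearly level, at 349.1, 229.0 and 378.6 against 320.2, 223.7 and 364.4 CPM.

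The library ratios of *Rdh10* were alike in both kinds of cell, -0.61 in *Tbx5* and -0.52 in *Vax2* cells from control to CCA and 0.73 and 0.70 from CCA to CCANT. *Dhrs3* was higher in CCANT than control by 0.76 in *Tbx5* and 0.69 in *Vax2* cells. In cells with neither gene it was higher by 0.49, inside 1.5-fold. *Rgr* was lower in CCA than control by -1.52 in *Tbx5* and -1.56 in *Vax2* cells, or -1.06 in *Vax2* cells without the control cell with *Rpe65*. *Aldh1a3* was higher in CCANT than control by 1.52 (1.00 to 2.05) in *Vax2* cells, from 90 and 49 UMIs, and its 11 and 8 UMIs in *Tbx5* cells left a wide interval (0.56, -0.88 to 2.08). The share of cycling cells was 23.6% of *Tbx5* and 18.9% of *Vax2* cells in CCA and 11.98% and 8.45% in CCANT. Within *Tbx5* cells the cycling ratio of *Aldh1a1* was 0.08 in CCA and 0.07 in CCANT, and within *Vax2* cells 0.30 and 0.81, against 0.26 and 0.50 over all kept cells.

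**Figure D5:**
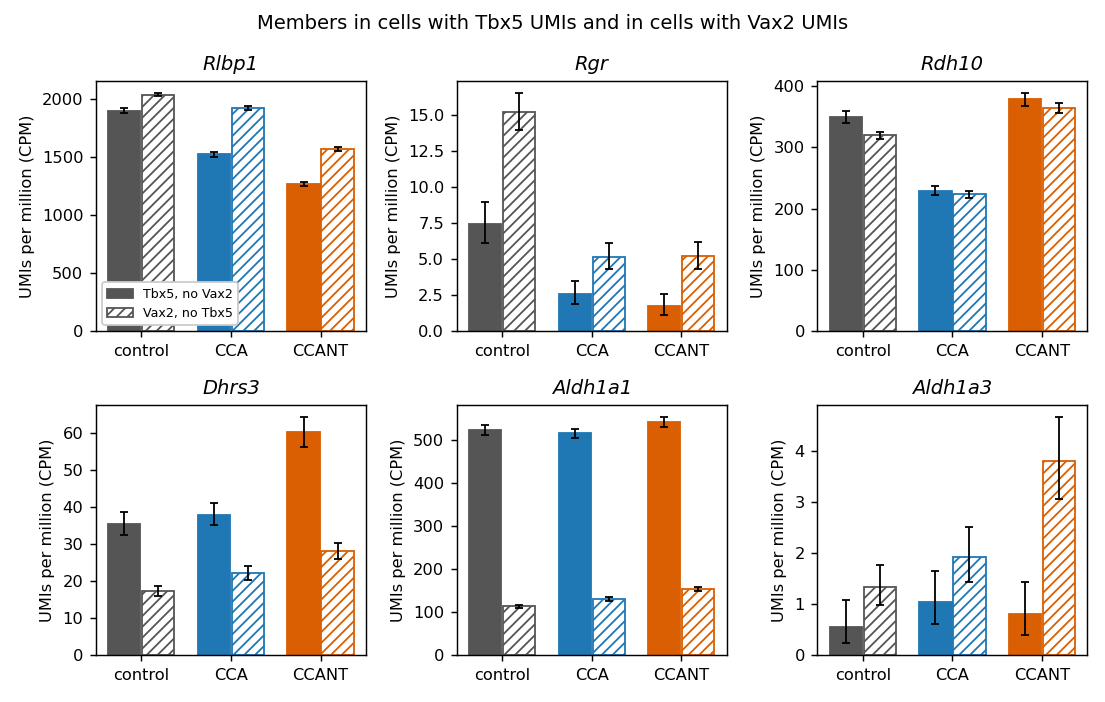
CPM (vertical axis from 0) of each member in kept cells with Tbx5 and no Vax2 UMIs (filled bars) and with Vax2 and no Tbx5 UMIs (hatched bars), by library, with exact 95% Poisson intervals. *Aldh1a1* and *Dhrs3* are higher in the cells with *Tbx5* in each library, while *Rdh10* is nearly level.

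Cells with at least 2 *Aldh1a1* UMIs of 8000 (1255, 1688 and 1399) were compared with cells with none (1916, 1537 and 1363). Of 6 dorsal genes, *Tbx3*, *Tbx5*, *Efnb1* and *Efnb2* were past 1.5-fold higher in the cells with *Aldh1a1* in every library, with *Tbx5* at 27.5 against 1.80, 30.1 against 2.24 and 30.4 against 2.69 CPM, while *Tbx2* and *Bmp4* were not. Of 5 ventral genes, *Vax2* was past it lower in every library (14.4 against 37.2, 14.2 against 35.5 and 16.5 against 38.7 CPM), and *Ephb2* was past it higher in CCANT. *Rdh10* was at 426.5 against 237.9, 258.9 against 176.0 and 441.3 against 261.5 CPM, past 1.5-fold in control and CCANT, although it was nearly level between *Tbx5* and *Vax2* cells. *Dhrs3* was at 32.8 against 16.2, 35.1 against 17.9 and 54.9 against 18.6 CPM, past 1.5-fold in each library.

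Of the 46 other genes of the pathway, 33, 33 and 32 were tested here, and 7, 9 and 9 were past 1.5-fold higher, 1 in each library lower, where 5.04%, 6.51% and 7.17% of all features were higher and 3.27%, 2.52% and 3.13% lower. *Cyp26b1*, which degrades retinoic acid, was at 87.0 against 2.72 CPM in control, 55.2 against 4.24 in CCA and 42.3 against 3.11 in CCANT. *Rarb*, a retinoic acid receptor that retinoic acid itself induces, was at 158.8 against 79.7, 133.3 against 61.9 and 148.6 against 59.4 CPM. *Fabp5*, a fatty acid carrier that also binds retinoic acid, was at 16.9 against 4.49, 16.9 against 3.27 and 24.7 against 4.97 CPM.

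Cells with an *Aldh1a3* UMI numbered 60, 62 and 114. They held *Rdh10* at 636.0, 288.6 and 471.3 CPM against 304.2, 215.1 and 343.6 in cells without it. *Vax2* was at 38.6, 34.98 and 45.6 against 27.3, 24.5 and 26.2 CPM. *Tbx5* was at 8.32, 18.7 and 5.65 against 11.9, 15.9 and 16.9 CPM. With so few cells these values are given without a call.

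Across the libraries, 35 of the 46 other genes of the pathway were tested in each comparison. From control to CCA 4 were past 1.5-fold higher and 1 lower, from control to CCANT 7 and 4, and from CCA to CCANT 5 and 2, with median log2 ratios of 0.01, 0.06 and 0.07. Of all features, 11.8% were higher and 3.29% lower in the first comparison, 11.0% and 5.93% in the second, and 3.1% and 6.03% in the last. *Rbp3*, the retinoid carrier between photoreceptors and glia, stood at 12.4, 35.8 and 80.3 CPM, *Abca4*, a rod and cone flippase, at 8.55, 14.8 and 22.4, and *Rdh12*, a photoreceptor retinal reductase, at 7.81, 13.8 and 19.0. These genes belong to photoreceptors, in which *Rbp3* stood at 569.4 to 1630 CPM and *Abca4* at 526.1 to 1298 CPM, and the rod markers moved with them. Without cells with rod markers *Rbp3* was at 10.9, 19.3 and 33.3 CPM, *Abca4* at 7.74, 7.82 and 10.8 and *Rdh12* at 7.46, 9.497 and 10.5, and the part of carried-over rod RNA in what was left was not tested.

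*Cyp26b1* stood at 34.3, 28.7 and 22.4 CPM, past 1.5-fold lower from control to CCANT (-0.61, -0.70 to -0.53). *Fabp5* was past it higher (8.95 to 14.2 CPM, 0.67, 0.53 to 0.80). *Ttr*, a retinol transporter made by the pigment epithelium, stood at 11.3, 4.55 and 7.05 CPM, and the control cell with *Rpe65* held 835 of its 1077 UMIs. Without the cells with at least 3 *Rpe65* UMIs *Ttr* stood at 2.54, 4.55 and 4.68 CPM, so that control was the lowest and no longer the highest. The counts of other pathway genes past 1.5-fold were then 5 higher and 0 lower from control to CCA, 8 and 3 from control to CCANT, and 4 and 2 from CCA to CCANT. In cycling cells of CCA, 2 of 33 genes were past 1.5-fold higher and 2 lower, where 8.91% and 2.7% of all features were, and in CCANT 1 and 1, where 8.42% and 4.24% were. The 1 lower in CCANT was *Ttr*, which was inside 1.5-fold without the cells with *Rpe65* (-0.34, -0.95 to 0.23). *Fabp5* was the gene that was higher in both, at 14.0 against 9.22 CPM in CCA and 23.3 against 13.1 CPM in CCANT.

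In rod-like and cone-like cells 18 of the 46 genes reached 20 CPM in at least 1 library. Beside *Rbp3*, *Abca4* and *Rdh12* (488.7 to 531.6 CPM in rod-like cells), *Rdh8*, a retinal reductase of photoreceptor outer segments, stood at 90.5, 68.7 and 60.5 CPM in rod-like and 0.398, 0.468 and 0.537 CPM in kept cells. *Rxrg*, a retinoid receptor of cones, stood at 77.7, 88.7 and 71.9 CPM in cone-like and 1.04, 0.878 and 1.37 CPM in rod-like cells. *Rarb* was at 132.8, 114.7 and 83.8 CPM in rod-like cells, in the neighbourhood of the 111.8, 97.1 and 104.3 CPM of kept cells. *Rdh11*, *Rdh14*, *Dhrs7*, *Dgat1*, *Fabp5*, *Adh5*, *Rara*, *Rxra*, *Rxrb*, *Ppard* and *Nrip1* were among the others, with their highest level between 24.4 CPM (*Rxra*) and 298.6 CPM (*Nrip1*).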

How the data were processed

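Per the labels and the study's methods, the authors made 3′ libraries (10x v3.1), aligned and counted them with Cell Ranger 6.1.1 against mm10 with tdTomato and GFP added and introns included, and deposited 1 matrix of UMI counts a library, with a joint count table of filtered cells (the kept cells). Counts were taken here from the library matrices, since control counts are thinned in the joint table, and 0 columns of per-sample values were left unused. Classes outside the kept cells were set by marker cuts after barcodes under 2000 features, over 100000 UMIs or over 15% mitochondrial reads had been dropped. Per the methods, the authors excluded doublets called by DoubletFinder before making the joint table, and no doublet caller was run here on the other cells. UMIs were summed per library and group of cells and compared as CPM for features with at least 50 UMIs, with exact 95% Poisson or binomial intervals (Python 3.11.15, scipy 1.17.1). The ratio step was run on Poisson counts simulated from the means of 1 library. These hold no spread between cells, animals or libraries, so the run checks only the calculation. With 1 library per group, no test was made. Cells were thinned to 8000 UMIs for shares. Other pathway genes were named when past 1.5-fold between libraries at 10 CPM or more, or at 20 CPM in rod-like or cone-like cells. The members and lists were chosen with earlier results of these data known, and the *Rpe65* removal and the *Tbx5* and *Vax2* splits as alternatives after seeing the data. Alternatives changed the counts, scaling, cells and fold. The values of 1 gene of the pathway list are not reported here.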

Additional observations from a re-analysis of the deposited data

Results flagged for a closer look

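*Aldh1a3* in cycling over other kept cells went opposite ways in the treated libraries, with a log2 ratio of -0.87 in CCA and 0.84 in CCANT. The difference between the libraries was not tested. These values rest on 13 and 26 UMIs in cycling cells, both met the floor of 50 UMIs only with the other cells, and both intervals include 0 once the 1 cell with most *Aldh1a3* UMIs is left out of each library.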

How the results depend on the processing

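No paired analysis was possible because each group is 1 library, and for the same reason no library could be left out. The counts given next include *Rgr* and *Aldh1a3* also where few of their UMIs lie in 1 of the groups compared. Of 80 recomputed counts of members past the fold, 63 stayed within 1.5 times the reported count. The share of all features is not given beside these alternative counts, so none is read as a result about the members. For CCA over control (1 member) the count was 0 in glia without a tdTomato requirement, 3 in cells with *Tbx5* and no *Vax2*, and 2 at a looser fold. For CCANT over CCA (2) it was 1 without cycling cells, 4 at a looser fold and 0 at 2-fold. An unchanged count can hold other members. In glia without a tdTomato requirement *Rdh10* fell inside the fold there (0.575) and *Rgr* was past it lower (-0.87). For cycling cells of CCA (1) it was 2 after thinning, 3 with at least 3 UMIs of *Mki67* and *Top2a*, 2 in *Tbx5* cells, 3 at a looser fold and 0 at 2-fold. For cycling cells of CCANT (2) it was 1 as a mean over cells, 1 in equal bins of depth, 1 in *Tbx5* cells, 4 in *Vax2* cells, 4 at a looser fold and 1 at 2-fold. Of 517 recomputed log2 ratios 21, of 16 ratios, took the other sign, and 7 of these belong to ratios past 1.5-fold as reported. Of the 7, *Aldh1a3* changed sign for CCANT over CCA in *Tbx5* cells (-0.36), in cycling cells of CCANT after thinning (-0.92) and in rod-like CCANT cells after thinning (0.34). *Rgr* changed sign in cycling CCANT cells with *Tbx5* (0.35), and *Dhrs3* in control rod-like cells restricted to kept cells (-0.0087). *Ttr* changed sign for CCA over control (0.84) and CCANT over control (0.88) without cells with *Rpe65*. The causes were not tested. Cone-like cells could not be restricted to kept cells, since none was kept. Few UMIs limit *Rgr* and *Aldh1a3* outside MG.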
